A study of Rattus norvegicus with 60 samples.

Results

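The comparison described here asked how the response of mesenchymal liver cells to cyproterone acetate (CPA) at 6 d differed from their response at 24 h. CPA, a synthetic steroid, blocks the androgen receptor, acts as a progestin and enlarges the liver of rats. The difference was (CPA minus corn oil at 6 d) minus (CPA minus corn oil at 24 h) on the log2 scale of the deposited values, so a value of 1 means that the CPA to corn oil ratio at 6 d was 2 times that at 24 h. The 4 groups compared held 14 of the 60 arrays of the series, the fit took its spread from all 30 mesenchymal arrays, and each of 14217 genes was represented by the probe set with the highest mean over all 60 arrays. In limma 76 genes (0.535% of those tested) had an adjusted p under 0.05 and are called below, 72 with a higher value at 6 d (0.506%) and 4 with a lower one (0.0281%). The higher genes included 22 of 36 measured genes of mitosis, the macrophage protease Mmp12, the lipase Lpl and the cytochrome P450 Cyp3a2. The lower genes were A1bg, Vxn, Dnajb2 and Sgf29. With only the 14 arrays in the fit 30 genes were called, 30 higher and 0 lower, and without corn oil replicate 1 or without replicate 2 at 6 d the 76 were 48.

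A dividing cell copies its DNA in S phase under genes of the G1/S programme, then condenses and separates its chromosomes with kinesin motors, kinetochore proteins and mitotic cyclins of the G2/M programme. Hepatocytes answer CPA with DNA synthesis. The mesenchymal or non-parenchymal cells of the liver include Kupffer cells, which are its resident macrophages, sinusoidal endothelial cells, stellate cells and lymphocytes, and they send growth factors and cytokines to hepatocytes.

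The animals of the groups compared here were labelled female Han-Wistar rats aged 8 weeks. One mesenchymal group received CPA at 100 mg/kg by a single gavage and was taken at 24 h (3 arrays), and another received it daily by gavage for 6 d (3 arrays). Their controls received corn oil at 10 ml/kg and were taken at 24 h (5 arrays) and at 6 d (3 arrays). Hepatocytes of the same 4 designs (14 arrays) served to compare the time patterns. Nothing in the labels says whether the arrays of a group came from separate animals, whether animals were pooled or how the mesenchymal cells were isolated, so p-values measure the spread between arrays, which may be technical. Time and number of doses changed together and cannot be told apart. In such bulk isolates more cells of a type and more RNA per cell cannot be told apart either.

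The first 2 arrays of CPA at 6 d lay closer to each other than any other of the 1770 pairs of arrays in the series. The SD of their difference over probe sets was 0.168, and 1 of 31042 probe sets differed by over 1 (log2). The other 18 pairs within the 4 groups had SDs from 0.317 to 0.808 and 464 to 3974 such probe sets. They may therefore hold the same RNA, in which case CPA at 6 d rests on 2 samples. With these arrays averaged and counted as 1 sample, 60 genes were called (57 higher, 3 lower), of which 59 were among the 76. The adjusted p from that fit, called the adjusted p with averaging, is given below for genes described singly whose call it ended and for some others. Array medians ran from 3.40 to 3.42.

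The labelled cell types were checked by their markers. Clec4f, a lectin of Kupffer cells, stood between 11.31 and 12.42 on the 14 mesenchymal arrays, and Lyve1, a receptor of sinusoidal endothelium, between 11.76 and 12.71. Hepatocyte RNA was present too: Alb, which encodes albumin, stood between 12.11 and 13.84. The mean of 17 hepatocyte markers was 6.59 to 10.40 on the corn oil arrays at 24 h, 8.48 to 10.24 on the CPA arrays at 24 h, 8.57 to 9.70 in corn oil at 6 d and 8.64, 8.66 and 10.23 in CPA at 6 d. These ranges overlapped, and limma called none of the 17 for the difference (0 at an unadjusted p under 0.05, median -0.53). No marker was called among the lists for Kupffer cells and macrophages (14 markers, 0 at an unadjusted p under 0.05), sinusoidal endothelium (17, also 0), T and NK cells (17, 0) and stellate cells (19, 2). The same held for monocytes and dendritic cells (14, 1), B cells (7, 1) and platelets and megakaryocytes (7, 1). It held for erythroid cells (8, 0) and neutrophils (8, 0) too. Of all genes tested 0.535% were called. Among the monocyte and dendritic cell markers 12 of 14 had a difference above 0, as had 7138 of all 14217 genes. Among 9 cholangiocyte markers Spp1 was called, and the mean of that list was 3.14 to 3.43 in CPA at 6 d and 2.80 to 3.18 on the other 11 arrays. Its group means at 6 d were 4.60 in CPA and 3.23 in corn oil for Spp1. Epcam had 3.74 and 1.97 at 6 d and 3.60 and 2.14 at 24 h. Of the 9 markers 7 had an effect above 0 at 6 d and 2 were called, while Krt7 (1.43 and 1.62) and Cftr (1.61 and 1.62) were not higher. In the hepatocyte isolates Epcam stood higher, at 7.77 and 5.94 at 6 d and at 7.62 and 5.53 at 24 h. Hepatocyte RNA and cholangiocytes in the mesenchymal isolates cannot be told apart by Epcam. On the mesenchymal arrays the mean of 8 neutrophil markers was 3.15 to 3.29 in CPA at 6 d and 2.52 to 3.14 on the other 11 arrays. Of the 8, 7 had an effect above 0 at 6 d and 0 were called. S100a8 had the largest (6.28 in CPA and 4.65 in corn oil), while Csf3r (2.22 and 2.05) and Cxcr2 (1.73 and 1.74) stood below the array medians.

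**Figure D1:**
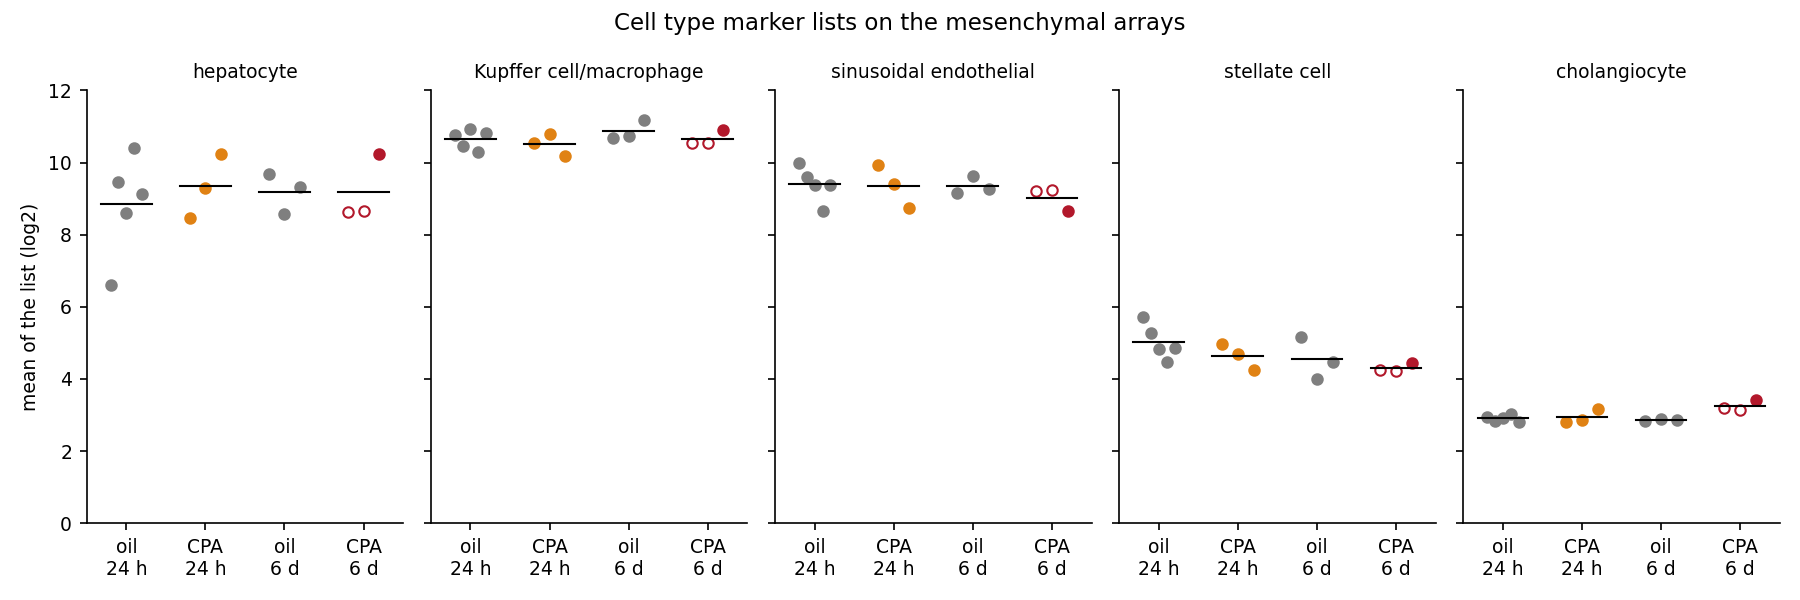
Mean log2 value of 5 marker lists on each mesenchymal array of the 4 groups, with black bars for group means and open circles for the near-identical CPA arrays at 6 d. Hepatocyte markers spread from 6.59 to 10.40 within corn oil at 24 h, and the cholangiocyte mean on all 3 CPA arrays at 6 d (3.14 to 3.43) was above every corn oil array. A CPA array at 24 h reached 3.18. Of the 9 cholangiocyte markers 2 were called higher in CPA at 6 d, and Krt7 and Cftr were not higher.

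Sorted by the calls at each time, 64 of the 76 genes rose late, meaning that they were called higher at 6 d and were not called at 24 h. A1bg fell late, Vxn, Dnajb2 and Sgf29 rose transiently (called at 24 h, not at 6 d), and no gene fell transiently. Fbn1 was called in opposite directions at both times. Sgo1, Ccnb1, Kif20b, Bub1, Ect2 and Shcbp1 rose at both times and more at 6 d, and Mcf2l was called for the difference alone. The late rise genes differed by 0.67 to 6.14 between the times (median 1.67), with a median effect of 0.10 at 24 h and 1.94 at 6 d. In all 76 genes the CPA groups differed more between the times (median 1.65) than the corn oil groups did (median 0.0972, at most 0.92). Each late rise gene had its 3 CPA arrays at 6 d above the 3 corn oil arrays, as had 13.3% of all genes tested, but the choice of these genes used the same values.

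Beyond the difference itself, 394 genes (2.77%) were called at 24 h and 335 (2.36%) at 6 d, 88 of them at both times and 87 of those in the same direction. The count at 24 h depended on single arrays of that time: it was 62 and 59 without CPA replicates 2 and 3, 1059 without CPA replicate 1, and 242 and 809 without corn oil replicates 3 and 4. Of 247 genes called at 6 d and not at 24 h, 65 were called for the difference. Of 306 called at 24 h and not at 6 d, 3 were. Being called at 1 time and not at the other therefore went with a called difference in a minority of genes. The count of late rise genes was 53 with the near-identical arrays averaged and ran from 40 to 73 when 1 array was left out. It was 40 without corn oil replicate 2 at 6 d (the lowest), and 30 when only the 14 arrays set the spread between arrays (15 with averaging as well). Without corn oil replicate 1 at 24 h it was 51. In that fit 12 genes rather than 6 rose at both times and more at 6 d.

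**Figure D2:**
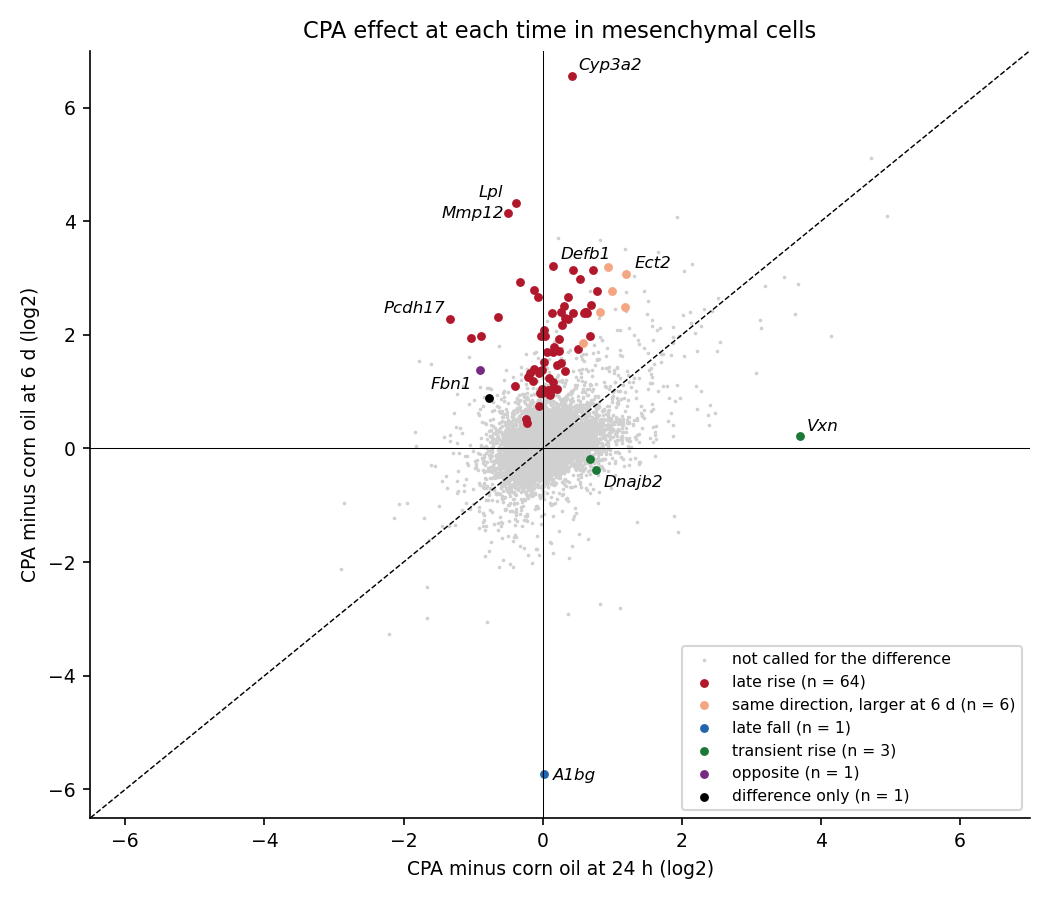
CPA minus corn oil (log2) in mesenchymal cells at 24 h (horizontal) and at 6 d (vertical) for 14217 genes. Colours mark the 76 genes called for the difference by class, and the dashed line marks equal effects. The 64 late rise genes, with a median of 0.10 at 24 h and 1.94 at 6 d, all lie above 0 at 6 d.

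Genes of mitosis made up the largest known group of the late response. Of 36 measured G2/M and mitosis genes, 22 were called for the difference, all higher at 6 d (background 0.506%). The median over the list was 1.48 against 0.00162 for all genes tested. At 24 h 12 of them had risen (median 0.57, background 2.41%) and at 6 d 34 had (median 2.39, background 2.14%). The list was drawn up with earlier results of these arrays known. The 22 were 13 without corn oil replicate 1 at 6 d, 13 without CPA replicate 1 at 24 h, 12 without CPA replicate 3 at 6 d, 18 with the near-identical arrays averaged and 9 in the fit of 14 arrays (5 with averaging as well). The 12 at 24 h were 2 and 3 without CPA replicates 2 and 3 at 24 h, and 4 in the fit of 14 arrays (3 with averaging as well), while the 34 at 6 d were 33 or 34 each time. Other settings raised the 12: to 14 without CPA replicate 1 and 16 without corn oil replicate 1 at 24 h, and to 26 with array weights.

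Kif23 encodes a kinesin of the central spindle that is needed for cytokinesis. It stood at 4.48, 3.60, 4.05, 3.30 and 3.67 in corn oil at 24 h, at 3.71, 3.80 and 3.57 in CPA at 24 h, at 3.78, 4.24 and 4.11 in corn oil at 6 d, and at 6.83, 6.79 and 6.86 in CPA at 6 d. At 24 h the CPA arrays lay within the corn oil range, and at 6 d all 3 lay above every corn oil array. The difference was 2.91 (SE 0.30, adjusted p = 8.28e-06 in limma), with an effect of -0.13 at 24 h and 2.79 at 6 d. Mki67, which encodes the proliferation marker Ki-67, stood at 5.58, 4.20, 4.47, 4.16 and 3.93 in corn oil and 4.69, 5.26 and 4.74 in CPA at 24 h. The 6 d arrays held 3.89, 4.72 and 4.63 in corn oil and 7.35, 7.43 and 7.89 in CPA. Its effect at 24 h was 0.43 (SE 0.29, adjusted p = 0.577) and at 6 d 3.14 (SE 0.32, adjusted p = 7.01e-07), a difference of 2.71 (SE 0.43, adjusted p = 0.00158). Corn oil replicate 1 at 24 h was above every CPA array of that time. The CPA arrays of Mki67 at 6 d were the highest of the 14. Prc1, which bundles the microtubules of the central spindle, stood at 5.30, 5.37 and 5.34 in CPA against 4.42 to 5.42 in corn oil at 24 h, and at 7.61, 7.69 and 7.91 against 4.67, 4.85 and 4.75 at 6 d. Its groups overlapped at 24 h alone, and its difference was 2.45 (SE 0.30, adjusted p = 7.37e-05). Ccnb2, cyclin B2, stood at 5.60, 4.29, 4.35, 4.14 and 4.02 in corn oil and 5.16, 5.33 and 5.11 in CPA at 24 h, and at 4.56, 4.28 and 4.37 in corn oil and 7.38, 7.44 and 7.80 in CPA at 6 d. Corn oil replicate 1 stood above the CPA arrays of 24 h here as well, and the difference was 2.42 (SE 0.43, adjusted p = 0.00498).

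The start regions of these 4 genes are shown because many mitotic genes are driven through a CHR element, TTTGAA, and CCAAT boxes. Each runs from 250 bases before to 50 after the annotated start in RefSeq on build GRCr8, 5′ to 3′ on the gene's strand. Capitals mark every TTTGAA or TTCAAA and every CCAAT or ATTGG, the letters of both strands. They lie at chr8:71320535-71320834 on the minus strand (Kif23), chr1:199952544-199952843 on the minus strand (Mki67), chr1:143659231-143659530 on the plus strand (Prc1) and chr8:79981609-79981908 on the minus strand (Ccnb2).
Kif23: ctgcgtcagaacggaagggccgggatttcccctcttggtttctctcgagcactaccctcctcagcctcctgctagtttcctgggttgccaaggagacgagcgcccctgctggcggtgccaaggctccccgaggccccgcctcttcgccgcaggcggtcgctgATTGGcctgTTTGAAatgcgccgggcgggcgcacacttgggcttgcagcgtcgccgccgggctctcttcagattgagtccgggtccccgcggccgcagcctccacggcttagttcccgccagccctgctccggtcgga
Mki67: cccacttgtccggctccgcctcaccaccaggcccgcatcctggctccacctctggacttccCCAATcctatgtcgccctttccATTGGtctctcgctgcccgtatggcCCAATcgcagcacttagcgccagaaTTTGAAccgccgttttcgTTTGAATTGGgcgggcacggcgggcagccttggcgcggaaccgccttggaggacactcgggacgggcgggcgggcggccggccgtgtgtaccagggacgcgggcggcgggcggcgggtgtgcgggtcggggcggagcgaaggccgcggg
Prc1: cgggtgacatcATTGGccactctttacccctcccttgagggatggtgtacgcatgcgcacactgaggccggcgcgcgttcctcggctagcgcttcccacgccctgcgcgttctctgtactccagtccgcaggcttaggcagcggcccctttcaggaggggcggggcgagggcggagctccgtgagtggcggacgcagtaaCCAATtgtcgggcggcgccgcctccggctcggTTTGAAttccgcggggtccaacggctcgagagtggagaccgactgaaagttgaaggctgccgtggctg
Ccnb2: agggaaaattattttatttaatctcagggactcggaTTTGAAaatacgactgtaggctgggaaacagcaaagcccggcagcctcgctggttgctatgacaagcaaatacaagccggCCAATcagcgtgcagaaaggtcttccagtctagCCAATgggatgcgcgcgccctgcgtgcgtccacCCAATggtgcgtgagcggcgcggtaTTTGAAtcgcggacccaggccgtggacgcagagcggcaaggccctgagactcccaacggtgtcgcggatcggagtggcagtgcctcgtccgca

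All 4 held both motifs, and in Mki67 a CHR and a CCAAT match overlapped. Of 32 mitosis list genes with such a region, 65.6% held the CHR letters and 56.2% held both motifs. Of 57 late rise genes 43.9% and 33.3% did, and of all 11734 tested genes with a region 12.3% and 5.02%. A match describes letters only. Whether the genes are driven through them was not tested.

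The other called genes of cell division fell into a few roles, which were grouped after their values were seen. The called kinesins, 8 in all (Kif2c, Kif11, Kif14, Kif18b, Kif20a, Kif20b, Kif22 and Kif23) differed by 0.86 to 2.91. Genes of the kinetochore and its checkpoint, 11 in all (Cenpe, Cenpf, Cenpi, Knl1, Nuf2, Knstrn, Kntc1, Bub1, Bub1b, Ttk and Sgo1), differed by 1.02 to 2.25, Cenpf the most. Among 10 genes of the spindle and of cell division (Aspm, Spag5, Dlgap5, Hmmr, Prc1, Racgap1, Ect2, Plk4, Ccnb1 and Ccnb2) the values ran from 1.04 in Spag5 to 2.73 in Aspm, the spindle pole protein. Top2a, which untangles DNA, the condensin subunits Ncaph and Ncapd2, the securin Pttg1 and Mki67 differed by 1.24 to 2.71. With the near-identical arrays averaged, 7 of the 8 kinesins, 10 of the 11 kinetochore genes, 8 of the 10 spindle genes and 4 of these 5 were still called.

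Cyclins differed in their calls at 24 h. Ccnb2 was not called then, where corn oil replicate 1 stood at 5.60, the other corn oil arrays at 4.02 to 4.35 and CPA at 5.11 to 5.33. Ccnb1, cyclin B1, stood at 3.44, 2.85, 3.13, 2.93 and 2.55 in corn oil at 24 h and had already risen to 4.0, 4.16 and 4.32 in CPA. The values at 6 d were 3.21, 3.06 and 3.26 in corn oil and 5.56, 5.50 and 5.93 in CPA. The CPA arrays were above corn oil at both times, and the effects were 1.18 (SE 0.19, adjusted p = 0.00136) and 2.49 (SE 0.22, adjusted p = 6.72e-08), with a difference of 1.31 (adjusted p = 0.0338, adjusted p with averaging 0.0507). Ect2, an exchange factor that starts cytokinesis, stood at 4.15, 4.91 and 4.94 in CPA against 2.98 to 4.13 in corn oil at 24 h and at 6.47, 6.51 and 7.02 against 3.37 to 3.78 at 6 d. It rose by 1.20 and then 3.07 (difference adjusted p = 0.0162), Kif20b by 0.83 and 2.40 (0.0206) and Sgo1, which protects the cohesion of centromeres, by 0.58 and 1.86 (0.00216). Ccna2, cyclin A2 (2.03 and 3.13), and Cdk1 (1.65 and 3.46) rose at both times and were not called for the difference.

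Inhibitors of the cell cycle were among the late rise genes as well. Cdkn2c and Cdkn2d, which encode the INK4 inhibitors p18 and p19 of the kinases that start S phase, differed by 1.01 (SE 0.19, adjusted p = 0.00654) and 0.95 (SE 0.22, adjusted p = 0.0479). Cdkn2c stood at 7.65, 7.75 and 7.79 in CPA at 6 d and between 6.14 and 6.67 on the other 11 arrays. Cdkn2d stood at 6.82, 6.71 and 6.66 against 5.54 to 6.02, and its adjusted p with averaging was 0.121. Mycn, a transcription factor of the Myc family, stood at 3.27, 3.46 and 2.53 in CPA at 6 d against at most 2.17 elsewhere (difference 1.06, adjusted p = 0.0395, adjusted p with averaging 0.150).

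For genes of the step before mitosis 27 of 31 differences were above 0, as were 7138 of all 14217. Of 31 measured G1/S and DNA replication genes limma called none for the difference, 12 had an unadjusted p under 0.05, all higher at 6 d, and the median was 0.42. At 24 h 15 of the 31 had risen (median 0.64, background 2.41%) and at 6 d 24 had (median 1.05, background 2.14%). Of all 14217 genes 0.506% were called higher for the difference, and 0 of 31 is near that share. At an unadjusted p under 0.05 615 of the 14217 were higher. Pclaf, a partner of the sliding clamp PCNA, rose by 2.32 and 2.45, Ccne2, cyclin E2, by 1.96 and 1.97, and Cdt1, which licenses origins of replication, by 1.52 and 1.68. Pola1, the catalytic subunit of DNA polymerase alpha, had the largest difference of the list, 1.09 (SE 0.27, adjusted p = 0.0748), with effects of -0.37 and 0.72, followed by Rrm1, a subunit of ribonucleotide reductase, with 1.01 (adjusted p = 0.0923). The lists were not tested against each other. The 15 at 24 h were 8 and 7 without CPA replicates 2 and 3 at 24 h and 8 in the fit of 14 arrays (4 with averaging as well), and the 24 at 6 d were 13 in the fit of 14 arrays with averaging. Without CPA replicate 1 at 24 h the 15 were 17, and with array weights the counts were 21 at 24 h and 30 at 6 d.

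**Figure D3:**
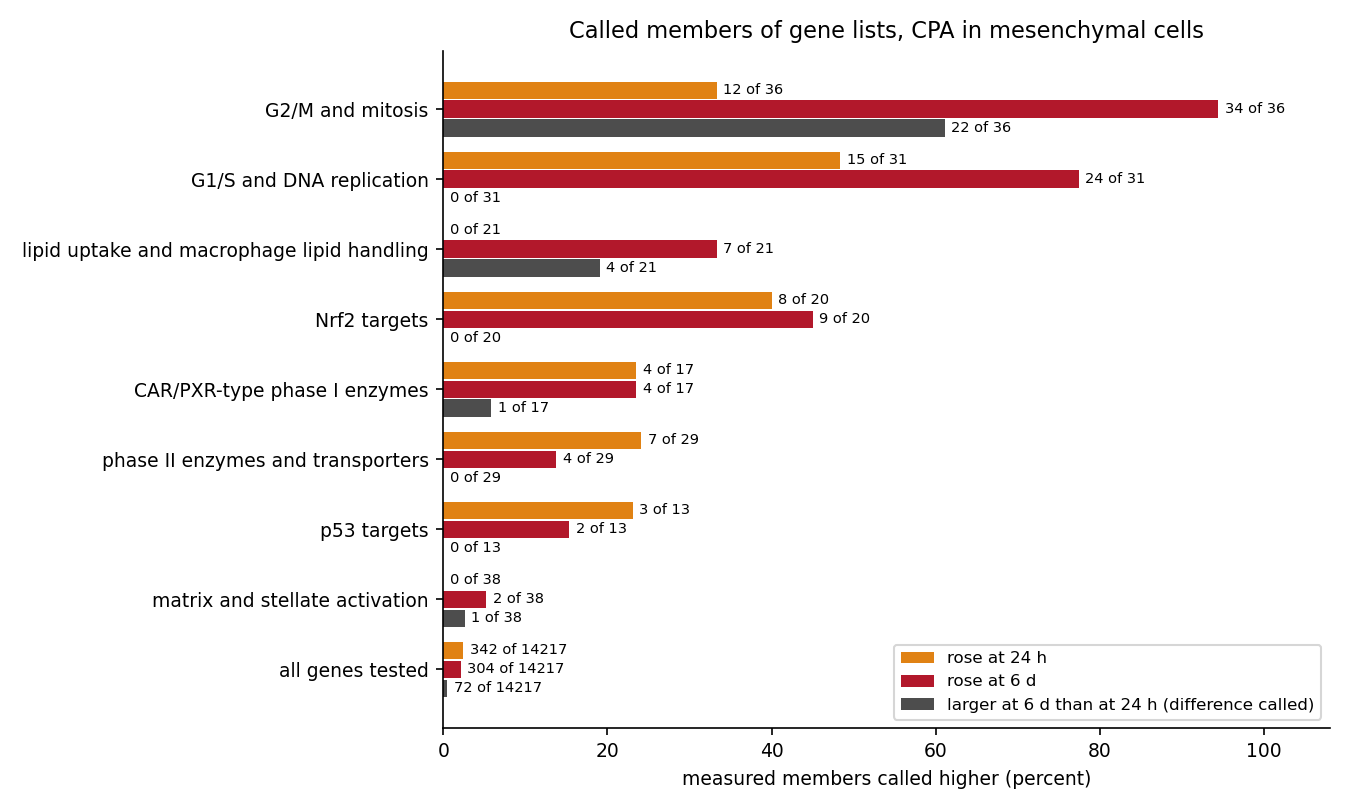
Share of the measured members of 8 gene lists, and of all genes tested, called higher in CPA than in corn oil at 24 h (orange), at 6 d (red) and for the difference between the times (grey), with counts beside the bars. For G2/M and mitosis 12, 34 and 22 of 36 were called, and for G1/S and DNA replication 15, 24 and 0 of 31.

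Lipid handling and macrophage genes were the next group among the largest late rises. Of 21 measured genes of lipid uptake and macrophage lipid handling, 4 were called for the difference (median 0.59), none rose at 24 h and 7 rose at 6 d (Lpl, Mmp12, Fabp4, Fabp5, Gpnmb, Olr1 and Spp1). Of all genes tested 0.506% were called higher for the difference, 2.41% at 24 h and 2.14% at 6 d. No rise among 21 genes at 24 h is near that share. The 4 were 1 without corn oil replicate 1 or 2 at 6 d, 2 without CPA replicate 1 at 24 h or CPA replicate 2 or 3 at 6 d, and 1 in the fit of 14 arrays. The 7 at 6 d were 2 in that fit with averaging.

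Mmp12, the elastase of macrophages, stood at 3.56, 4.49, 3.75, 4.07 and 2.84 in corn oil and 3.54, 3.37 and 2.82 in CPA at 24 h. After 6 d it stood at 3.35, 3.82 and 4.22 in corn oil and 8.22, 8.28 and 7.35 in CPA, the last 3 being above every other array. Its effect at 6 d was 4.15 (SE 0.44, 17.8-fold) and its difference 4.65 (SE 0.59, adjusted p = 0.000105), and it was called under every alternative. Lpl, lipoprotein lipase, which releases fatty acids from circulating triglyceride, stood at 2.84, 2.40, 7.13, 2.85 and 2.83 in corn oil and 2.67, 3.84 and 3.19 in CPA at 24 h. At 6 d it stood at 3.03, 2.99 and 2.98 in corn oil and 7.24, 7.03 and 7.71 in CPA. Corn oil replicate 3 at 24 h was thus as high as the CPA arrays at 6 d. The difference of Lpl was 4.70 (SE 0.98, adjusted p = 0.0206, adjusted p with averaging 0.0440), and its call was lost without CPA replicate 1 at 24 h, CPA replicate 3 at 6 d or any corn oil array at 6 d.

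Smaller changes of the same kind came with low values. Spp1, osteopontin, a secreted ligand of integrins, stood at 5.18, 4.73 and 3.89 in CPA at 6 d and at most at 3.26 elsewhere (difference 1.40, adjusted p = 0.0303, adjusted p with averaging 0.0989), and it was called in 5 of the 14 fits that left out 1 array. Olr1, a receptor of oxidised lipoprotein, stood at 2.28, 2.94 and 2.63 against at most 1.98 (difference 0.98, adjusted p = 0.0271). Fabp4, a carrier of fatty acids, rose by 3.70 at 6 d, but its difference of 3.48 was not called (adjusted p = 0.147). The marker mean of Kupffer cells and macrophages was 10.18 to 10.80 in CPA at 24 h and 10.55 to 10.90 in CPA at 6 d, against 10.29 to 10.94 and 10.68 to 11.19 in corn oil.

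Pcdh17, Pimreg, Mest and Abcc9 had large late rises too. Pcdh17, a protocadherin of cell adhesion, stood at 4.37, 3.81 and 3.87 in CPA at 24 h, below the corn oil range of 4.66 to 6.27. At 6 d it stood at 7.60, 7.68 and 5.73 in CPA against 4.66, 5.09 and 4.41 in corn oil. Its difference was 3.62 (SE 0.60, adjusted p = 0.00187). Pimreg, a mitotic protein, differed by 3.25 (SE 0.61, adjusted p = 0.00826), and corn oil replicate 1 at 24 h (4.23) stood apart from the other corn oil arrays of that time (1.88 to 2.38). Mest, an imprinted gene of the hydrolase fold, stood at 8.54, 8.50 and 7.93 in CPA at 6 d, with corn oil at 5.52 to 6.38 at 6 d and up to 7.83 at 24 h. It differed by 2.96 (adjusted p = 0.0127) and Abcc9, the sulfonylurea receptor subunit of potassium channels, by 2.98 (adjusted p = 0.0248, adjusted p with averaging 0.0806). Phgdh, which starts serine synthesis (difference 0.90), the mitochondrial dehydrogenase Idh2 (0.75), the lipocalin Apod (0.79) and Ptgr1, a prostaglandin reductase (2.87), rose late too, and of these only Apod kept its call with averaging (adjusted p with averaging 0.0557, 0.0505, 0.0440 and 0.0605).

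Some of the changes were in genes of the hepatocyte. Cyp3a2, a steroid hydroxylase that in rats is higher in males, had the largest difference of all genes tested. It stood at 1.34, 2.45, 2.29, 2.24 and 1.74 in corn oil and 2.33, 2.29 and 2.66 in CPA at 24 h. The arrays of 6 d held 2.59, 1.78 and 1.42 in corn oil and 7.84, 7.86 and 9.76 in CPA. The arrays did not overlap at 6 d, and the highest was CPA replicate 3, the array with the highest hepatocyte marker mean of that group (10.23 against 8.64 and 8.66). The effect at 6 d was 6.56 (SE 0.48, 94.2-fold) and the difference 6.14 (SE 0.64, adjusted p = 8.28e-06). In hepatocytes its means were 3.41 in corn oil and 4.27 in CPA at 24 h and 3.87 and 11.67 at 6 d. Defb1, an antimicrobial peptide, stood at 5.49, 5.22 and 5.34 in CPA at 6 d and at most at 2.69 elsewhere (difference 3.06, SE 0.28, adjusted p = 1.91e-06).

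A1bg, a plasma glycoprotein, was the late fall. Corn oil arrays at 24 h held 4.92, 8.51, 6.97, 9.62 and 8.25 and CPA arrays 7.34, 7.72 and 7.97. At 6 d the values were 8.46, 6.56 and 7.64 in corn oil and 1.88, 1.70 and 1.87 in CPA, below every other array. Over all genes 8.94% had every CPA array below every corn oil array at 6 d. The difference was -5.76 (SE 0.98, adjusted p = 0.00249, adjusted p with averaging 0.00990), and it was not called with only the 14 arrays in the fit (adjusted p = 0.0879). In hepatocytes A1bg fell from 11.84 to 4.28 at 6 d. When the mean of the hepatocyte markers entered the fit as a covariate, the differences of Cyp3a2, Defb1 and A1bg were 6.36, 3.13 and -5.28, and 23 mitosis list genes were called. The covariate follows the amount of hepatocyte RNA and cannot remove a change by CPA within that RNA. For Cyp3a2, Defb1 and A1bg, hepatocyte RNA in the isolates and expression by mesenchymal cells therefore cannot be told apart.

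**Figure D4:**
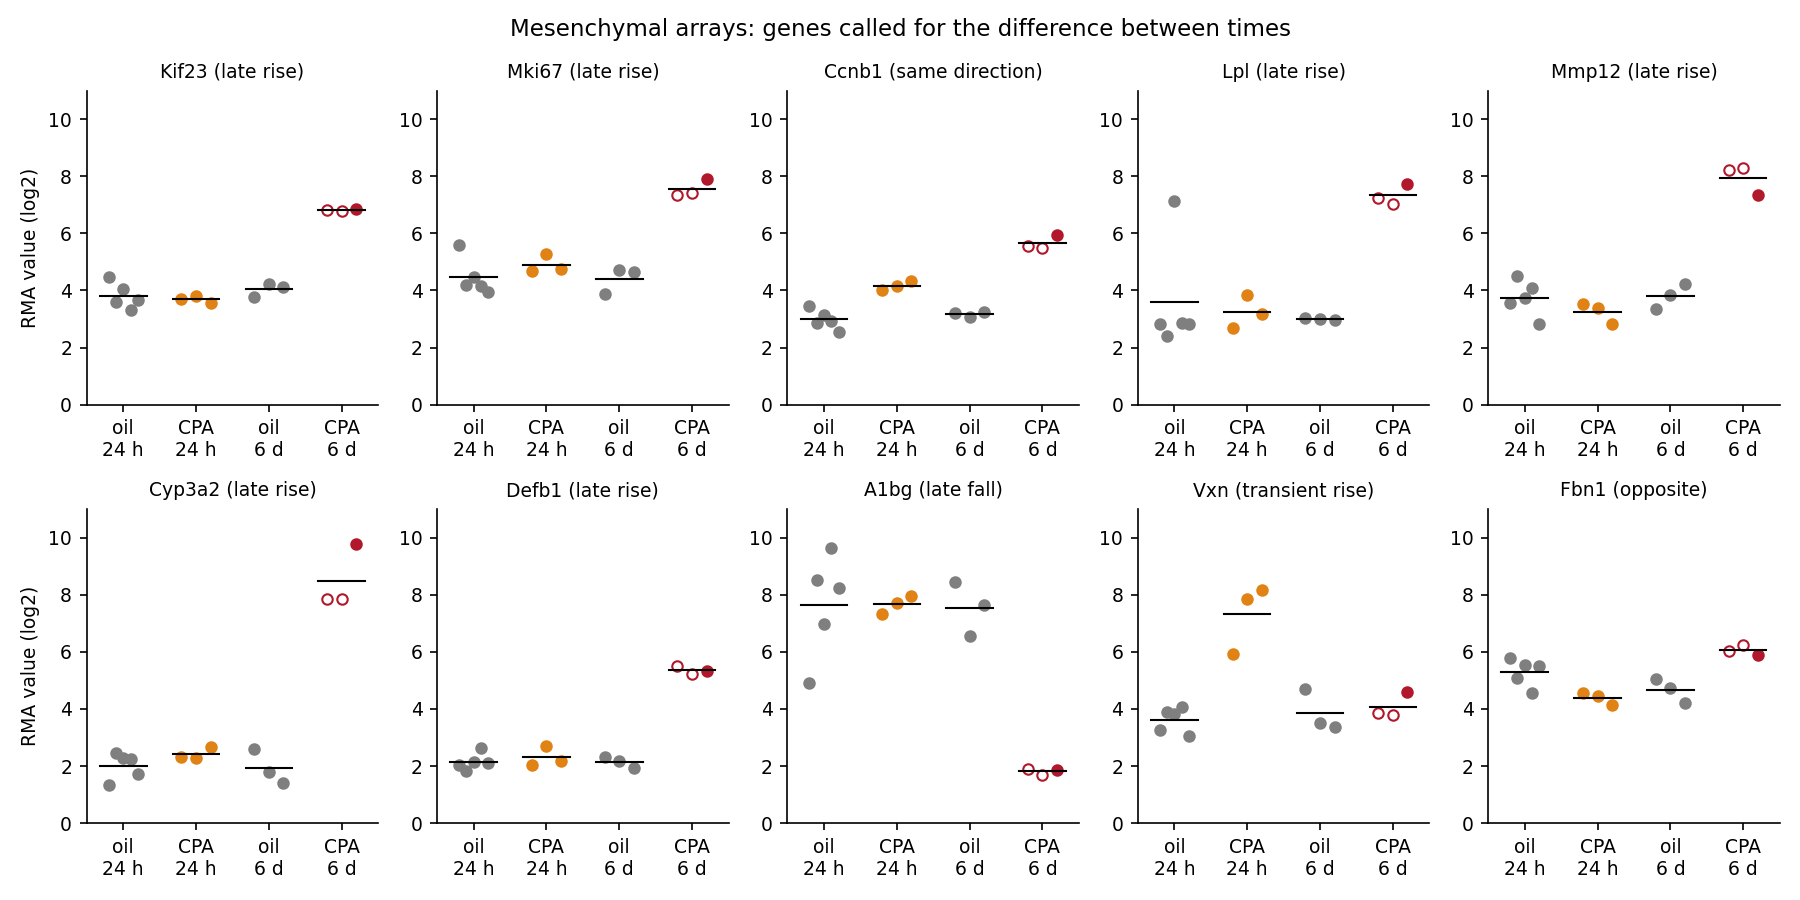
Deposited log2 value of 10 genes on each of the 14 mesenchymal arrays by group, with black bars for group means and open circles for the near-identical CPA arrays at 6 d. At 6 d CPA lies apart from corn oil in every panel but that of Vxn, whose CPA arrays lie apart at 24 h.

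The lists of drug metabolism below held 1 call for the difference. Of all genes tested 0.535% were called for it, so a list of such size with no call is near that share. The shares of all genes that rose were 2.41% at 24 h and 2.14% at 6 d. Of 17 CAR/PXR-type phase I enzymes Cyp3a2 was called for the difference, while 4 rose at 24 h (median 0.96) and 4 rose and 1 fell at 6 d (median 0.58). Cyp3a23-3a1, a near relative of Cyp3a2, was higher by 4.95 at 24 h, and its 4.09 at 6 d was not called. Epoxide hydrolase, Ephx1, rose by 2.44 and 2.43. None of 29 phase II enzymes and transporters was called for the difference by limma (0 at an unadjusted p under 0.05), with 7 rises at 24 h and 4 rises and 1 fall at 6 d. Gstm1, a glutathione transferase, rose by 3.46 and 3.02. Of 20 Nrf2 targets, which answer oxidative stress, none was called either (3 at an unadjusted p under 0.05), 8 rose at 24 h and 9 at 6 d. Akr7a3, an aldehyde reductase, rose by 4.72 and 5.11, and Nqo1, a quinone reductase, by 2.12 and 2.40. The counts at 24 h were 1, 4 and 5 for phase I, phase II and Nrf2 without CPA replicate 2 at that time and 1, 3 and 5 without replicate 3, and the phase I count was 2 without corn oil replicate 1, 3 or 5. The phase II count at 6 d was 1 without corn oil replicate 2 or 3 and 2 without CPA replicate 3 at 6 d, and the Nrf2 count at 6 d was 5 without the latter. These misses of the threshold do not show that the effects were equal. In hepatocytes 6, 12 and 14 genes of the phase I, phase II and Nrf2 lists rose at 24 h (background 23.0%) and 3, 5 and 1 fell. At 6 d 7, 15 and 16 rose there (background 15.3%) and 4, 3 and 1 fell. Hepatocyte RNA in the mesenchymal isolates and expression by mesenchymal cells cannot be told apart for these genes.

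In limma 3 genes were called as transient rises and 0 as transient falls. The numbers were 0 and 0 with only the 14 arrays in the fit, 12 and 11 with a further oil group of 24 h, whose meaning the labels do not state, in place of the controls, 3 and 10 with the hepatocyte marker mean as covariate, and 341 and 158, against 215 late rises, with array weights. At 24 h 3.47% of all genes had every CPA array above every corn oil array and 1.79% had every one below. Vxn, vexin, a regulator of neuronal differentiation, stood at 3.28, 3.88, 3.83, 4.05 and 3.04 in corn oil and 5.91, 7.87 and 8.17 in CPA at 24 h. The 6 d values were 4.68, 3.49 and 3.38 in corn oil and 3.84, 3.79 and 4.58 in CPA, where the groups overlapped. It rose by 3.70 at 24 h (SE 0.37, 13.0-fold) and stood at 0.22 at 6 d, a difference of -3.48 (SE 0.55, adjusted p = 0.00134, adjusted p with averaging 0.00593). Dnajb2, a J-domain cochaperone, stood at 6.94, 7.36 and 7.35 in CPA at 24 h against 6.09 to 6.79 in corn oil, and at 5.65, 5.73 and 5.74 against 6.04 to 6.18 at 6 d (difference -1.15, SE 0.23, adjusted p = 0.0127). Its effect at 6 d, -0.38, was not called. Sgf29, a subunit of the SAGA acetyltransferase complex, stood at 6.19, 6.38 and 6.30 in CPA against 5.36 to 5.90 in corn oil at 24 h, and at 4.94, 4.92 and 5.20 against 4.99 to 5.50 at 6 d, where the groups overlapped. Its effects were 0.68 and -0.19 (difference -0.87, adjusted p = 0.0481, adjusted p with averaging 0.149), and its probe set with the largest variance gave 0.18 (adjusted p = 0.999).

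Of the 257 genes that rose at 24 h and were not called at 6 d, 80 had a difference with an unadjusted p under 0.05, and their median effect went from 0.74 to 0.29. Of the 49 that fell, 30 had one, with a median going from -0.74 to -0.13, and none was called for the difference by limma. Aen, a nuclease among the p53 targets, rose by 1.39 at 24 h and stood at 0.25 at 6 d (difference adjusted p = 0.292), and Cyp26a1, which breaks down retinoic acid, fell by 1.84 at 24 h and stood at 0.29 (0.148). The transient classes held 3 rises and 0 falls in all, but 19 and 8 without CPA replicate 1 at 24 h, 4 and 14 without corn oil replicate 4 at 24 h and 5 and 1 without CPA replicate 3 at 6 d.

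Fbn1 was called lower at 24 h and higher at 6 d. It encodes fibrillin-1 of extracellular microfibrils and stood at 5.80, 5.08, 5.53, 4.57 and 5.50 in corn oil and 4.57, 4.46 and 4.14 in CPA at 24 h. At 6 d it stood at 5.07, 4.72 and 4.21 in corn oil and 6.04, 6.23 and 5.89 in CPA. The groups did not overlap at either time, apart from equal values to 2 decimals at 24 h in CPA replicate 1 and corn oil replicate 4. The effects were -0.91 (SE 0.23, adjusted p = 0.0341) and 1.39 (SE 0.26, adjusted p = 0.00180), with a difference of 2.30 (SE 0.35, adjusted p = 0.000853), and the probe set with the largest variance gave 2.28 (adjusted p = 0.240). The opposite calls were lost with that probe set, without the sex term, with only the 14 arrays in the fit, without corn oil replicate 1, 3 or 5 or CPA replicate 2 or 3 at 24 h, and with the close pairs of 2 groups averaged. It was the single called gene of 38 matrix and stellate activation genes (median 0.29, 6 higher and 1 lower at an unadjusted p under 0.05), where 0.535% of all genes tested were called. Mcf2l differed by 1.67 (adjusted p = 0.0382, adjusted p with averaging 0.106) with -0.78 at 24 h and 0.89 at 6 d, neither of them called.

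Hepatocytes of the same design showed another course for mitosis. There 35 of the 36 mitosis genes had already risen at 24 h (median 2.37, background 23.0%) and 34 rose at 6 d (median 2.57, background 15.3%). Mki67 had means of 3.13 in corn oil and 6.53 in CPA at 24 h and of 3.38 and 5.99 at 6 d. The difference between times in mesenchymal cells minus that in hepatocytes was 3.50 for Mki67 (SE 0.86, adjusted p = 0.0224), and 8 of the 36 list genes were called higher in mesenchymal cells (median 1.43, all genes tested 0.0219). Over all genes 197 (1.39%) were called for this contrast, 82 higher (0.577%) and 115 lower (0.809%) in mesenchymal cells. Which direction held more calls was not stable, since they were 172 higher and 141 lower with the further oil group in place of the controls, 148 and 148 with it added, 158 and 125 without mesenchymal corn oil replicate 4 at 24 h, and 125 and 97 without hepatocyte CPA replicate 3 at 24 h. Of the replication genes 6 of 31 were called higher (median 1.33), and 30 of the 31 had risen in hepatocytes at 24 h and 24 at 6 d.

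Among the 64 late rise genes 36 rose in hepatocytes at both times, 3 at 24 h and not at 6 d, 14 at 6 d and not at 24 h, and 11 at neither time. Of 14 Kupffer cell and macrophage markers, 13 were above 0 in the hepatocyte isolates at 6 d (median 1.38). There 4 rose and 1 fell (all genes tested 15.3% and 9.62%), and Clec4f stood at 7.72 in CPA and 6.30 in corn oil. For macrophage genes such as Mmp12, mesenchymal RNA in those isolates and expression by hepatocytes cannot be told apart. For 22 of the 64 the difference was called higher in mesenchymal cells than in hepatocytes. Among them were Depdc1 (3.09, SE 0.44, adjusted p = 2.36e-05), Prc1 (2.48, adjusted p = 0.00318), Kif23 (1.88, adjusted p = 0.0449), Mmp12 (3.38, adjusted p = 0.00379), Pcdh17 (3.13) and Pimreg (3.10). Pimreg had means of 1.83 in corn oil and 2.02 in CPA at 6 d in hepatocytes, where it was not called. Fbn1 was called higher too (2.14, adjusted p = 0.00179). For 16 late rise genes the difference was called higher in hepatocytes as well (7.05% of all genes were called higher there and 8.33% lower), among them Cyp3a2 (6.95 in hepatocytes), Defb1 (5.23), Ptgr1 (3.56) and Ddit4l, a relative of an inhibitor of TOR signals (3.70). The contrast was called lower in mesenchymal cells for Defb1 (-2.17, adjusted p = 0.00806) and Ddit4l (-2.15, adjusted p = 0.00379).

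The 11 late rise genes with no called rise in hepatocytes were Abcc9, Apod, Enpp3, Fblim1, Mest, Mycn, Olr1, Pcdh17, Pimreg, Plet1 and Spp1. Their differences in mesenchymal cells ran from 0.67 to 3.62 and in hepatocytes from 0.0499 to 1.17. The highest of the latter was that of Enpp3, whose difference was called higher in hepatocytes too. Some values were low: on the mesenchymal CPA arrays at 6 d Apod stood at 2.31 to 2.44 and Fblim1 at 2.37 to 2.63. Plet1 stood at 3.72 to 3.99 there. Of the transient genes, Vxn rose in hepatocytes at 24 h by 4.07 and at 6 d by 1.70, and the contrast of -1.12 (SE 0.71) had an adjusted p of 0.650. For Vxn too, hepatocyte RNA in the isolates and expression by mesenchymal cells cannot be told apart.

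**Figure D5:**
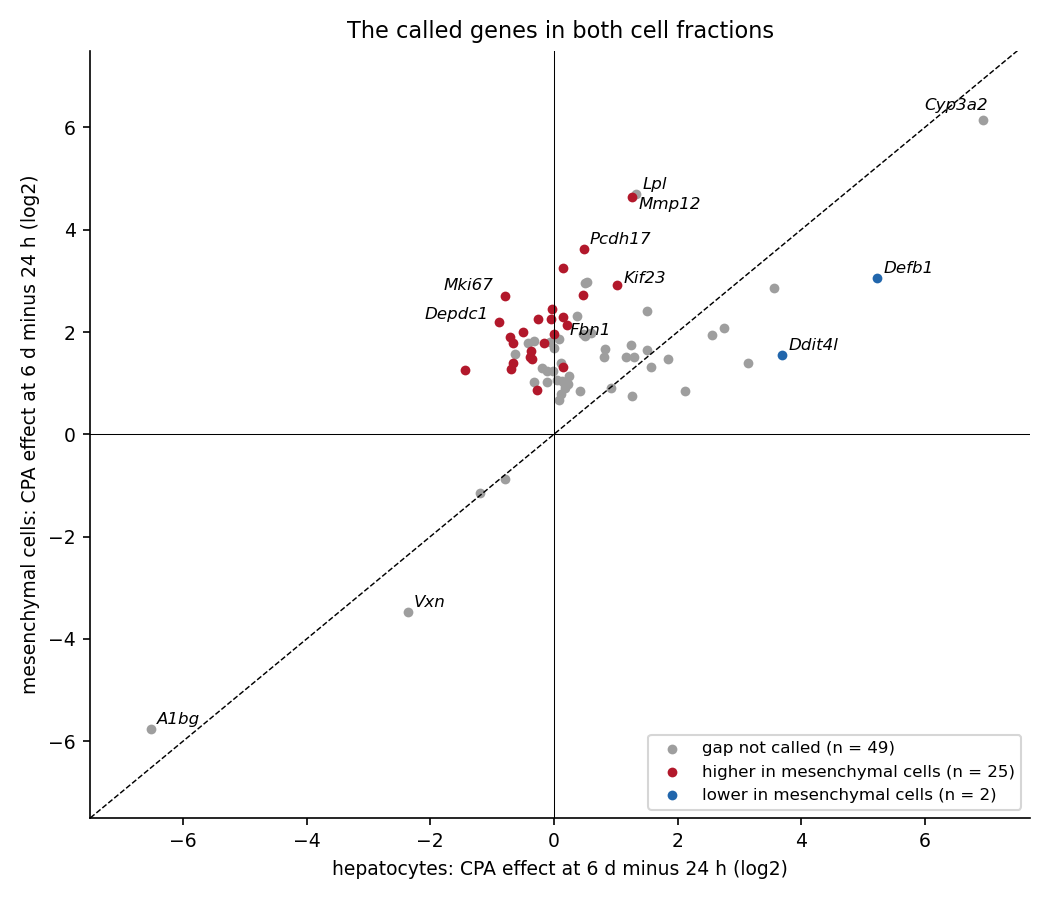
Difference of the CPA effect between 6 d and 24 h (log2) in hepatocytes (horizontal) and in mesenchymal cells (vertical) for the 76 genes called in mesenchymal cells, coloured by the test of the gap between the fractions. The dashed line marks equal differences, and 25 genes were called higher and 2 lower in mesenchymal cells.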

How the data were processed

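The deposited values were log2 expression values made by the authors with RMA, per the submitters' processing notes (version not given in the sources used here), for 31042 probe sets of the Affymetrix Rat Genome 230 2.0 array and 60 arrays. Per the labels' protocols 250 ng of total RNA was labelled. Of the probe sets, 20826 had 1 gene symbol, 436 several and 9780 none, and 20758 (99.7%) of the first were matched to RefSeq by gene ID. Each of 14217 symbols was represented by its probe set with the highest mean over all arrays.

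In limma 3.58.1 (R 4.3.3) all 30 mesenchymal arrays were fitted with a mean for each group and a term for labelled sex (some arrays of the other groups are labelled male), which does not enter the contrast, followed by eBayes and Benjamini-Hochberg adjustment over 14217 genes at 0.05. Hepatocytes were fitted likewise, and the contrast between fractions came from a fit of both. The fit was tested on simulated data with 14217 genes, where 54%, 88%, 98% and 98% of 50 genes with true differences of 1, 2, 3 and 4 were called and 11 of 180 calls were of unchanged genes. Its noise was drawn independently for each gene and array. These rates therefore do not cover shifts shared by many genes of an array or the near-identical arrays. The number of arrays limits the precision. A replicate is an array, in the numbering of the labels.

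Genes to name were the up to 8 largest differences of each class whose CPA arrays lay apart from corn oil, up to 4 called members of each list (or the 2 largest differences), Tnf, Mki67, Alb, Clec4f, Lyve1 and Hbb as checks, and the 6 largest contrasts with hepatocytes in each direction. Other genes named were chosen after their values were seen. The members, the 42 lists and the tests were chosen with earlier results of these data known, so none is independent evidence. The alternatives were other sets of arrays and controls, other filters, probe sets and normalizations, array weights, a hepatocyte covariate, a replicate block and leaving out each array. Averaging the near-identical arrays was chosen after seeing the data.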

Additional observations from a re-analysis of the deposited data

Results flagged for a closer look

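The tests of a difference between groups gave 76 genes for the CPA effect between times in mesenchymal cells and 197 for the gap in that difference between mesenchymal cells and hepatocytes. Of the latter, the largest positive contrasts were those of Cyp26a1 (4.30), Mki67 (3.50), Mmp12 (3.38), Pcdh17 (3.13), Pimreg (3.10) and Depdc1 (3.09). The largest negative ones were those of Gstp1 (-5.87), Tusc3 (-3.85), Adam8 (-3.70), Sox4 (-3.63), Tnfsf10 (-3.59) and Akr1b1 (-3.49). For Gstp1, a glutathione transferase, the difference between times was 0.54 in mesenchymal cells and 6.41 in hepatocytes.

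In 6 of 114 groups of values checked, an array of corn oil at 24 h stood far from the other 4, and chance alone marks about 1 in 20. These were Lpl in replicate 3 (7.13), Pimreg (4.23), Ccnb2 (5.60) and Fabp1 (9.92) in replicate 1, Cdh13 in replicate 4 (2.99) and Adam8 in replicate 5 (4.49).

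Among 10216 probe sets with no or several gene symbols, which the comparisons by gene did not use, 9 were called for the difference in limma, 8 higher and 1 lower at 6 d. The one with the smallest adjusted p differed by 1.44, the one with the largest difference by 2.26 (3.86 at 24 h, 6.12 at 6 d) and the lower one by -1.05.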

How the results depend on the processing

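Counts of calls depended on which arrays set the spread. For the difference between times 76 genes became 30 with only the 14 arrays, 15 with those and the near-identical arrays averaged, 48 with these and a close pair of another mesenchymal group averaged, 43 with a mean of at least 5 required in a group, 141 with a further oil group at 24 h, whose meaning the labels do not state, in place of the controls, 116 with the mean of the hepatocyte markers as covariate and 990 with array weights, where 502 were higher and 488 lower. Leaving out 1 array gave 48 to 105, the lowest without corn oil replicate 1 or 2 at 6 d. For CPA at 24 h, 394 became 71 with the 14 arrays, 39 with averaging as well, 902 with the further oil group added, 1060 with it in place, 594 with the covariate and 2586 with array weights, and 59 to 1059 when 1 array was left out. For CPA at 6 d, 335 became 220, 156 with averaging as well, 191 with the filter on the mean and 1560 with array weights, and leaving out 1 array gave 230 to 377. For the contrast between fractions, 197 became 97 with only the CPA and corn oil arrays, 296 and 313 with the further oil group added or in place and 1103 with array weights, and 134 to 283 when 1 array was left out. The causes were not tested.

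With the replicate number as a replicate block the counts were 86, 271, 355 and 177. Same-numbered CPA and corn oil arrays had correlations of their deviations of 0.679, -0.0914 and 0.0983 at 24 h and -0.183, 0.303 and 0.114 at 6 d, so the numbers were not taken to pair the samples. Of the 76 genes 40 were called with every array left out in turn, and 13 under each of 28 alternatives. Over single genes and settings 4064 values kept side and direction, 468 lost the call and 50 gained one, and Sgf29 turned to 0.18 with the probe set of the largest variance. These values cover the 76 genes and named genes not called in the main fit, and only the 76 could lose a call.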

Other observations

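Some regulators were called at 6 d without a called difference from 24 h, and these were chosen after their values were seen. Hgf, a growth factor for hepatocytes made by mesenchymal cells, stood at -0.63 at 24 h and at 1.81 at 6 d (adjusted p = 0.0476 in limma), a call lost among others with averaging of the near-identical arrays and without the sex term, with a difference of 2.44 (adjusted p = 0.122). Inhbb, a subunit of activin B, stood at 0.82 and rose by 3.67 (difference 2.85, adjusted p = 0.0703). Cxcl12, a chemokine of stromal cells, stood at -0.80 and fell to -3.05 below corn oil (adjusted p = 0.000196, difference adjusted p = 0.165). Tnf, a cytokine of macrophages, was called at neither time (0.47 and 1.59) nor for the difference (1.11, adjusted p = 0.887).

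Among genes called at 24 h, Insig2, which holds back cholesterol synthesis, rose by 2.39 and stood at 0.42 at 6 d (difference adjusted p = 0.328), and Phlda3, a p53 target, rose by 1.97 and stood at 0.89 (0.638). Mybl1, a Myb family transcription factor, rose at both times (3.63 and 2.37). Lrat, which esterifies retinol in stellate cells, was called lower at both times (-1.64 and -1.62), but at 6 d not with averaging of the near-identical arrays, without corn oil replicate 1 or 3 or without CPA replicate 1 or 2 of that time, and at 24 h not without CPA replicate 3 of that time. Cyp2c7, a cytochrome P450 higher in female rats, fell at 6 d (-2.91) and stood at 0.36 at 24 h (difference adjusted p = 0.0715).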
